A study of Mus musculus with 4 samples.

Results

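The genes described here are 10 regulators and markers of long-lived T cells, namely Tcf7, Lef1, Bach2, Id2, Id3, Eomes, Zeb2, Slamf6, Satb1 and Bcl2. They were taken by name from the 32285 genes of the deposited table, and the list was chosen with earlier results of these data known. They were followed across CD8, CD4, regulatory T and NK cells in 4 single-cell libraries. Slamf6 encodes a surface receptor, Bcl2 encodes an inhibitor of apoptosis, and the other names belong to DNA-binding regulators or to inhibitors of them. All 10 had at least 1 unique molecular identifier (UMI, a tag that marks 1 captured RNA molecule) in T or NK cells, although Id3 never reached 50 UMIs in any class of any library.

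Memory and progenitor-like T cells keep the ability to divide and to give rise to effector cells, and in tumours this ability is known to be tied to the transcription factor TCF1, the product of Tcf7. TCF1 and its relative LEF1 bind the same short DNA letters and keep genes of resting cells active, and BACH2 represses effector genes. ID2 and ZEB2 are known for the opposite role in terminal effector cells, since ID2 blocks the E proteins that ID3 also blocks in memory precursors, and ZEB2 acts with T-bet.

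The tumours were grown under the skin of C57BL/6 mice from KPC cells, a line from a mouse model of pancreatic cancer. Mice were left untreated, or received an agonist of STING (ADU-S100, a synthetic ligand of this cytosolic sensor of cyclic dinucleotides) by injection into the tumour, an agonistic antibody to the lymphotoxin-beta receptor (LTbR, clone 4H8) into the peritoneum, or both. Tumours of a group were pooled, digested with enzymes and sorted for live CD45+ leukocytes, so that each group is 1 library and the tumour cells themselves were sorted away. The labels give no age. With 1 library per group there are no replicates, no test of a treatment was possible, and the intervals given in brackets are exact 95% intervals that cover counting error only.

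In all, 24839 barcodes were deposited and 23011 passed the filters, with 3748 to 7147 cells and a median of 5750 to 7094 UMIs per cell in a library. Between libraries, 284 barcode sequences were shared, which is 2.29% of all barcodes. The classes, built without the 10 genes, held 3277 CD8, 1150 CD4, 769 regulatory T and 1473 NK cells. Foxp3, Cd3e and Klrb1c were among the markers used to name the classes, so their shares describe the naming and are no separate check. Foxp3 was seen in 71.8 to 77.8% of regulatory T cells and Cd3e in 90.4 to 93.9% of CD8 cells. Klrb1c was seen in 63.1 to 78.8% of NK cells. Cd3e was seen in 1.8 to 5.7% of NK cells and in 62.6 to 80.8% of regulatory T cells. Cd4 was seen in 46.0 to 63.5% and Cd8b1 in 8.61 to 14.4% of regulatory T cells. In NK cells Ncr1 was seen in 43.5 to 59.9% and Trdc in 12.9 to 17.7%. Some cells of every class had under 3% of their UMIs in ribosomal protein genes, and they were more frequent in the untreated library (15.9% of CD8, 21.1% of CD4, 34.4% of regulatory T and 37.1% of NK cells) than in the library of both agonists (6.60%, 6.06%, 12.6% and 11.3%). Those cells had fewer UMIs, with a median of 2237 against 4705 in NK cells. Among NK cells, Bach2 stood 2.27 and Bcl2 2.35 higher on the log2 scale in them than in the other cells, and the log2 difference of Id2 was -2.65. The class levels and treatment ratios of the 10 genes that turn on these cells are therefore given with and without them.

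In the mouse genome (GRCm38), Tcf7 lies at chr11:52252371-52283014 on the minus strand, Lef1 at chr3:131110471-131224356, Bach2 at chr4:32238804-32586108, Id2 at chr12:25093799-25097140 on the minus strand, and Id3 at chr4:136143497-136145755. Eomes lies at chr9:118478212-118486132, Zeb2 at chr2:44983632-45117395 on the minus strand, Slamf6 at chr1:171917515-171953170, Satb1 at chr17:51736187-51833290 on the minus strand, and Bcl2 at chr1:106538178-106714274 on the minus strand. Genes without a named strand lie on the plus strand. The spans differ widely, from 2.3 kb for Id3 and 3.3 kb for Id2 to 347.3 kb for Bach2. Whether reads in introns were counted is not given in the sources used here.

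Windows around annotated starts of Tcf7, Lef1 and Bach2 are shown as examples of genes whose levels were correlated over the classes and libraries. Bcl2 was correlated with Bach2 (Pearson r of 0.92) and Tcf7 (0.80) as well, and its window is not shown. Each window runs from 250 bases before to 50 bases after a start site of RefSeq (GRCm38.p6), is read on the strand of the gene, and carries in capitals any match, on either strand, to CTTTGA or CTTTGT, letters that TCF1 and LEF1 can bind. The first is Tcf7 at chr11:52282965-52283264, and the second and the third are an upstream and an internal start of Lef1 at chr3:131110047-131110346 and chr3:131156044-131156343. The last is an internal start of Bach2 at chr4:32417185-32417484.
Tcf7: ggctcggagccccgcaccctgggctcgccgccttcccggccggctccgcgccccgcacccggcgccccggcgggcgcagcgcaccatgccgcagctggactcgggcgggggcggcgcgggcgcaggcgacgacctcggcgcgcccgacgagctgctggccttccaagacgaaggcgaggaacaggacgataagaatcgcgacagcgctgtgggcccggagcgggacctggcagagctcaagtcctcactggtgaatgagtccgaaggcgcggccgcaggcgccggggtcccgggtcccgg
Lef1 upstream start: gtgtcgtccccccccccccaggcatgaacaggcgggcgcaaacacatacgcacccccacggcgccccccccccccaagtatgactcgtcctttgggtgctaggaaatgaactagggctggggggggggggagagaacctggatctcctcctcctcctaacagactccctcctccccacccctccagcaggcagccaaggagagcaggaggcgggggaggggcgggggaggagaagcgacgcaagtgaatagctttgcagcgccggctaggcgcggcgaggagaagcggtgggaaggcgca
Lef1 internal start: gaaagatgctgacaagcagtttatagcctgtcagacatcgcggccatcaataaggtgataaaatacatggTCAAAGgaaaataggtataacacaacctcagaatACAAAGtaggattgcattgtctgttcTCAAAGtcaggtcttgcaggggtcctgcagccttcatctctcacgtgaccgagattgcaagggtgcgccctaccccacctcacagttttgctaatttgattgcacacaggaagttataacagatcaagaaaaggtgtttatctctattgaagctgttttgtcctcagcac
Bach2: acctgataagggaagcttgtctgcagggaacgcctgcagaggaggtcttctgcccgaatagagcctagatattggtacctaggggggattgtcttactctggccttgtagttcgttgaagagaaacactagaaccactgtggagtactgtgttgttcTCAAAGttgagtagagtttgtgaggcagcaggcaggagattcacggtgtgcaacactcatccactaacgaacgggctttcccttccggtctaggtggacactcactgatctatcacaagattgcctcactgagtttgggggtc
The internal start of Lef1 held 3 matches, that of Bach2 held 1, and the windows shown for Tcf7 and for the upstream start of Lef1 held none. The windows of Tcf7, Lef1 and Bcl2 that are not shown held none either. Of the 21 windows of the 10 genes, 5 held a match, and these belonged to Lef1, Bach2, Satb1 and Zeb2. Across all 32851 windows of the table, 31.2% held a match, so that the letters are common. A match describes letters and not a bound site. The letters before the annotated start of Tcf7 include the known coding start of the long form of TCF1, so that this window is partly coding sequence.

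Tcf7 was highest in CD4 and NK cells and lowest in regulatory T cells. Its level, in CPM (UMIs scaled to 1e6 per class and library), was 237 in untreated CD4 cells, 226 with the STING agonist, 139 with the LTbR agonist and 217 with both, and in the same order it was 157, 196, 155 and 114 in NK cells. In CD8 cells the 4 values were 40.3, 60.8, 84.7 and 83.1 CPM, and in regulatory T cells they were 16.7, 18.6, 16.3 and 18.7 CPM. The regulatory T values rest on only 11, 8, 22 and 16 UMIs. Thus the NK and CD4 values overlapped, while every CD8 value was below both and above every regulatory T value. When each cell was thinned to 1000 UMIs to equalise depth, 4.85 to 8.57% of CD8 cells held a Tcf7 UMI. As a background, 0.107 to 0.227% of macrophage- or monocyte-like cells and 0 to 1.15% of neutrophil-like cells did. The share was 0.663 to 3.15% in dendritic cells and 0 to 0.571% in B or plasma cells. Before thinning, 12.2 to 19.9% of CD8 cells held a Tcf7 UMI, and thinning left out 4 to 9 CD8 cells per library that were too shallow.

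Lef1 followed a like order. CD4 cells held 218, 190, 178 and 201 CPM from untreated to both agonists, and NK cells held 163, 191, 158 and 135 CPM. The CD8 values of 52.0, 67.3, 96.6 and 99.0 CPM overlapped those of regulatory T cells, at 86.7, 69.9, 71.8 and 65.6 CPM. The regulatory T values were therefore not all below those of the other classes for Lef1, as they were for Tcf7. Without the cells low in ribosomal protein UMIs, Lef1 in NK cells was 77.3 to 104 CPM and overlapped the CD8 range of 43.4 to 93.5 CPM.

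Bach2, which represses effector genes, separated all 4 classes. Its level was 675, 463, 493 and 383 CPM in NK cells, 311, 362, 231 and 309 CPM in CD4 cells, 144, 167, 175 and 195 CPM in CD8 cells, and 94.3, 39.6, 70.3 and 76.1 CPM in regulatory T cells. No range touched the next, and this also held without the low-ribosomal cells, where NK cells ranged from 292 to 354 and CD4 cells from 208 to 280 CPM. Satb1, which encodes a chromatin organiser of thymocytes and resting T cells, was lowest in CD8 cells, at 255, 287, 269 and 315 CPM. CD4 cells held 400, 416, 368 and 450 CPM of Satb1, regulatory T cells 473, 594, 392 and 474 CPM, and NK cells 772, 604, 653 and 492 CPM. The CD4 range met that of regulatory T cells and the latter met that of NK cells, the CD4 and NK ranges did not meet, and CD8 cells stood apart, although without the low-ribosomal cells the CD8 range (208 to 286 CPM) met that of regulatory T cells (252 to 442 CPM).

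Id2 was highest in CD8 cells, by little over CD4 cells with the LTbR agonist. Its level there was 990.3, 839, 752 and 848 CPM, above 576, 595, 691 and 598 CPM in CD4 cells, 543, 551, 573 and 612 CPM in NK cells and 525, 508, 484 and 562 CPM in regulatory T cells. All 4 CD8 values exceeded those of every other class. After thinning, 44.5 to 48.1% of CD8 cells and 30.7 to 45.6% of NK cells held an Id2 UMI, and these shares overlapped. Id3, its relative, was at most 14 CPM in any class, and in CD8 cells it gave 18, 11, 20 and 30 UMIs, or 0.276 to 0.516% of the UMIs of Id2 and Id3 together.

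Eomes, a T-box factor of NK cells and memory CD8 cells, was highest in NK cells and next in CD8 cells. NK cells held 210, 138, 213 and 200 CPM and CD8 cells 43.5, 46.8, 51.5 and 43.0 CPM, whereas CD4 cells held 2.36 to 13.5 CPM. No Eomes UMI was found in the 163 untreated regulatory T cells, which allows a share of up to 1.84% of cells with a UMI, nor in the 102 of the STING library, which allows up to 2.94%. Zeb2, a repressor found in terminal effector cells, was 212, 175, 175 and 182 CPM in CD8 cells and 164, 122, 186 and 164 CPM in NK cells, and these overlapped. The CD4 values of 140, 94.3, 101 and 137 CPM lay below those of CD8 cells, as did the regulatory T values of 119, 105, 57.0 and 44.5 CPM.

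Slamf6, a homotypic receptor used to mark progenitor-like exhausted cells, was highest in CD4 cells in all 4 libraries, at 103, 92.0, 90.3 and 86.8 CPM. Regulatory T cells held 41.1, 60.5, 54.8 and 37.5 CPM, CD8 cells 16.2, 20.6, 26.5 and 15.1 CPM, and NK cells 24.5, 19.4, 21.8 and 6.83 CPM. The ranges of CD8 and NK cells overlapped and lay below that of regulatory T cells. Bcl2, which protects resting lymphocytes from death, was 1647, 1097, 1190 and 1060 CPM in NK cells. Its CD8 levels (424, 340, 511 and 572 CPM) overlapped its CD4 levels (414, 358, 425 and 341 CPM), and regulatory T cells held only 33.5, 18.6, 52.6 and 74.9 CPM.

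**Figure D1:**
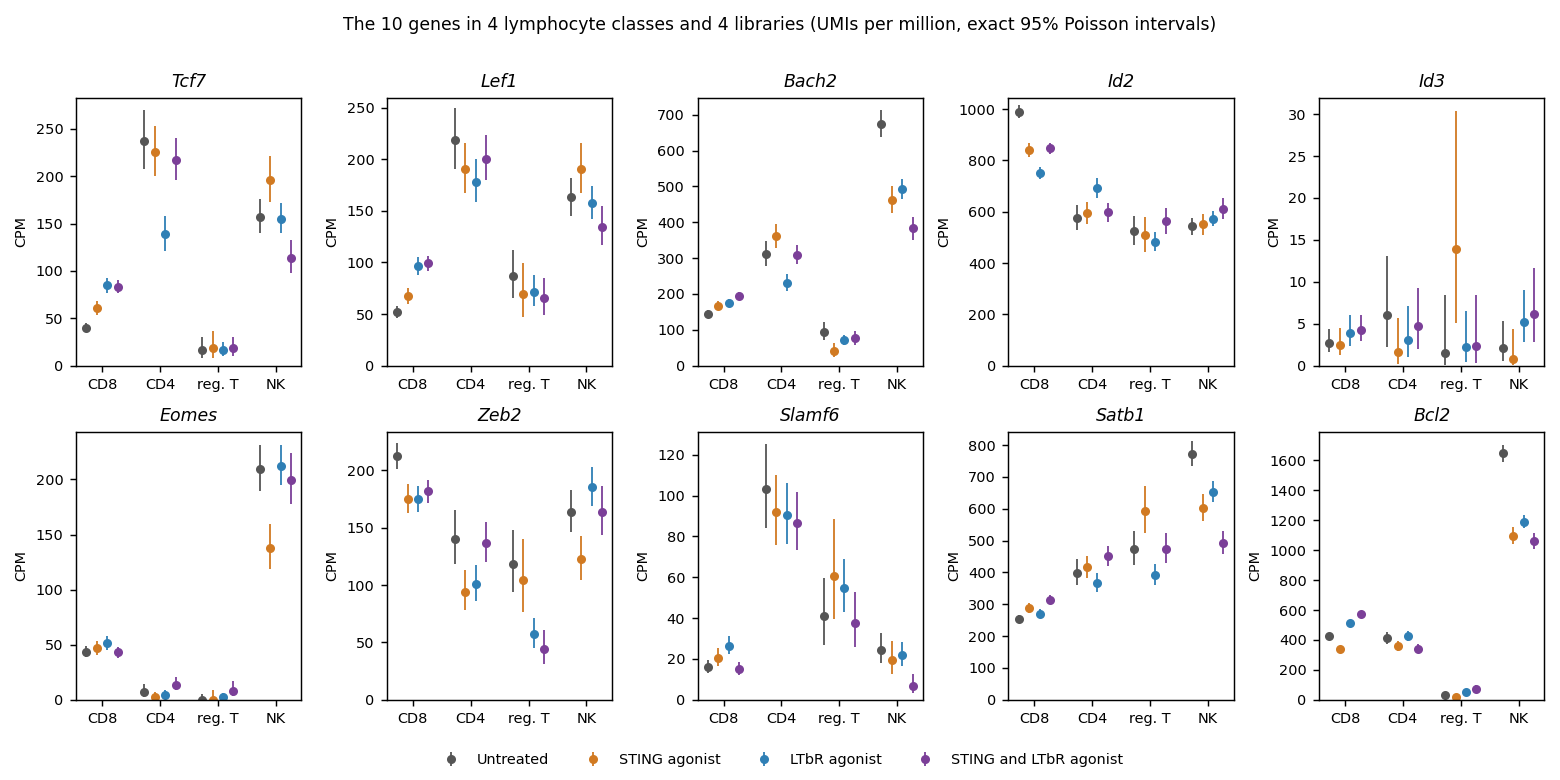
Level of each of the 10 genes (CPM, linear axis from 0) in CD8, CD4, regulatory T and NK cells, with 1 point per library and bars for the exact 95% Poisson interval. Id2 sits highest in CD8 cells, Slamf6 highest in CD4 cells, Bcl2 highest in NK and lowest in regulatory T cells.

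Counting the genes whose 4 library values did not overlap between classes summarises these levels for pairs of classes. Between CD4 and CD8 cells, 8 of the 9 genes with enough UMIs did not overlap, whereas 25.4% of all genes tested in that pair did not. Tcf7, Lef1, Bach2, Slamf6 and Satb1 were higher in CD4 cells, with a median log2 difference over the libraries from 0.51 for Satb1 to 1.84 for Slamf6. Id2 (-0.49), Zeb2 (-0.65) and Eomes (-1.88) were lower there, and Bcl2 overlapped. Between regulatory T and CD4 cells, 6 of 8 did not overlap (28.0% of all genes), all lower in regulatory T cells, with Bcl2 (-3.04) and Tcf7 (-3.01) farthest apart and Id2 (-0.18) nearest. Between NK and CD8 cells, 7 of 9 did not overlap (34.0% of all genes). Of these, Eomes (1.92), Bach2 (1.43), Bcl2 (1.43), Tcf7 (1.17), Satb1 (1.15) and Lef1 (1.01) were higher and Id2 (-0.53) was lower in NK cells. Without the low-ribosomal cells the counts were 8, 5 and 6, beside 26.6%, 31.5% and 31.2% of all genes, since Id2 then overlapped between regulatory T and CD4 cells and Lef1 between NK and CD8 cells. The classes come from the same cells, so that these counts are a description.

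Within the classes the 10 genes were spread unevenly over sub-clusters of cells that had been formed without them. Naive-like T cells, defined by Ccr7, S1pr1, Klf2 and related genes, held 752 CPM of Tcf7, 1137 of Lef1, 1932 of Bach2 and 2400 of Satb1 but 109 of Id2 and 6.73 of Zeb2. T cells rich in Ly49 receptors, inhibitory receptors for MHC class I, held 430 CPM of Tcf7, 328 of Lef1, 505 of Bach2 and 191 of Id2. These 2 sub-clusters thus joined high Tcf7 and Lef1 to low Id2. The exhausted-like sub-cluster of 1398 cells, defined by Pdcd1, Havcr2 and Lag3, showed the reverse, with 1.84 CPM of Tcf7, 30.2 of Lef1, 4.60 of Slamf6, 1194 of Id2 and 216 of Zeb2. Effectors with granzymes C to F were as poor in Tcf7 (4.51 CPM) and Lef1 (11.1 CPM). Memory-like cells lay between, with 167 CPM of Tcf7 and 574 of Id2. Slamf6 was highest in a sub-cluster led by Ramp3, S1pr1 and Il6ra that held 230 CD4 cells among its 397 cells, with 241 CPM of Slamf6 and 441 of Tcf7. High Id2 was not confined to CD8 cells. A sub-cluster led by Penk and Csf2, with 328 CD4 cells among its 426 cells, held 1078 CPM of Id2.

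NK sub-clusters differed in Eomes and Zeb2. The conventional NK sub-cluster held 369.7 CPM of Eomes, 283 of Zeb2 and 17.4 of Slamf6. The ILC1-like sub-cluster, tissue-resident relatives of NK cells, held 22.3 CPM of Eomes, 62.6 of Zeb2 and 1.12 of Slamf6. An unnamed NK sub-cluster of 171 cells held 238 CPM of Eomes but 75.8 of Zeb2, so that Zeb2 did not follow Eomes there. The cells low in ribosomal protein UMIs made up 95.2 to 96.8% of 4 small T and NK sub-clusters, led by Myo10 and Dlg2, Dgki and Arhgap26, Ikzf2 and Fam169b, and Lrmda and Lncpint.

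**Figure D2:**
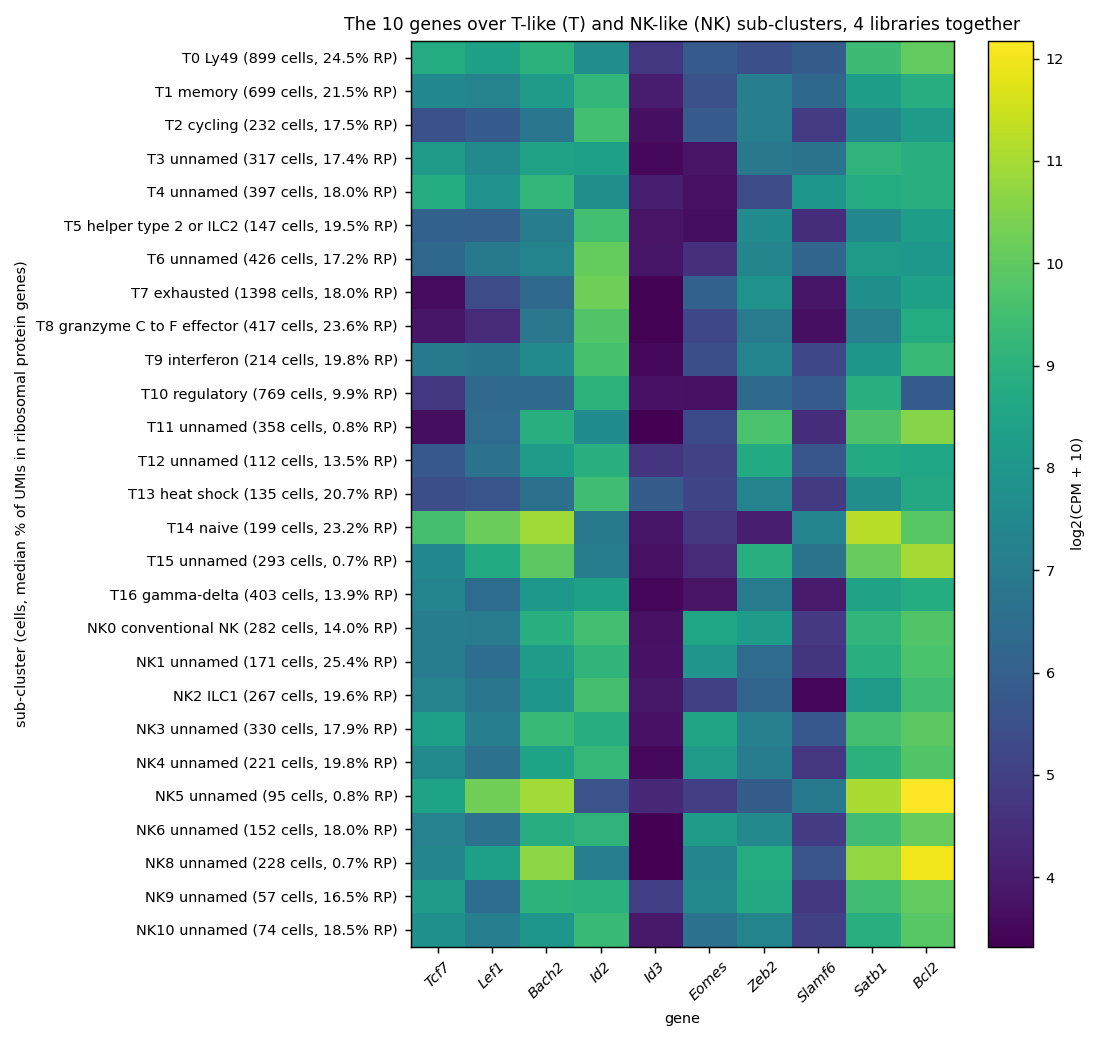
Level of the 10 genes in sub-clusters of T and NK cells, all 4 libraries together, as log2(CPM + 10) by colour. Naive-like and Ly49 T cells are high in Tcf7, Lef1 and Bach2 and low in Id2, and exhausted-like cells and effectors with granzymes C to F show the reverse.

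The treatments were compared with the untreated library within each class, as log2((CPM + 10)/(CPM of untreated + 10)), and a gene was counted as past the fold where it differed by at least 1.5-fold and had 50 UMIs or more in either library. All 3 comparisons of a class share the same untreated library, so that a value peculiar to it would enter each of them. In CD8 cells none of 9 genes passed the fold with the STING agonist (1.49% of all genes did). With the LTbR agonist 2 of 9 did (1.92% of all genes), and with both agonists again 2 of 9 (1.42% of all genes). These were Tcf7 and Lef1 each time, both higher.

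Tcf7 in CD8 cells had log2 ratios of 0.49 [0.20, 0.78] with the STING agonist, 0.91 [0.65, 1.18] with the LTbR agonist and 0.89 [0.64, 1.14] with both. For Lef1 the ratio was 0.78 [0.53, 1.03] with the LTbR agonist and 0.81 [0.59, 1.04] with both. The share of CD8 cells with a Tcf7 UMI after thinning went from 4.85% untreated to 6.47%, 8.57% and 7.67%, and that with a Lef1 UMI from 5.60% to 6.64%, 6.62% and 10.7%. Both agonists together did not give a higher Tcf7 level than the LTbR agonist alone. Without the low-ribosomal cells, Tcf7 stood at 0.87 and 0.85 and Lef1 at 0.90 and 0.95, and Slamf6 (0.62, LTbR agonist) and Bcl2 (0.64, both) then passed the fold as well, beside 1.98% and 1.24% of all genes. The other genes moved less in CD8 cells: Bcl2 had ratios of -0.31, 0.26 and 0.42 with the STING agonist, the LTbR agonist and both, Id2 of -0.24, -0.39 and -0.22, and Zeb2 of -0.26, -0.27 and -0.21.

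Most Tcf7 UMIs of the treated CD8 cells lay in the Ly49 and naive-like sub-clusters, and these sub-clusters also took a larger share of the treated than of the untreated CD8 cells, apart from naive-like cells in the STING library. Ly49 cells made up 3.74% [2.62, 5.16] of untreated CD8 cells, 6.60% [4.71, 8.94] with the STING agonist, 11.7% [9.51, 14.1] with the LTbR agonist and 8.63% [6.95, 10.6] with both. Their own Tcf7 level was 384, 536, 403 and 541 CPM in that order. They gave 34.8% of the Tcf7 UMIs of untreated CD8 cells and 56.7% with the LTbR agonist, where they contributed 48.0 of the 84.7 CPM of the class, against 14 of 40.3 CPM untreated. Naive-like cells numbered 3, 0, 15 and 41 among CD8 cells, and in the library of both agonists they gave 22.6% of the Tcf7 and 26.5% of the Lef1 UMIs. Memory-like CD8 cells contributed 13.7 to 18.7 CPM of Tcf7 in every library, and exhausted-like cells held at most 3.05 CPM.

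When the sub-clusters present in all 4 libraries were given equal makeup in each library, the Tcf7 ratio in CD8 cells was 0.11 with the LTbR agonist and 0.11 with both, and that of Lef1 was 0.05 and 0.19. With naive-like cells left out, Tcf7 still passed the fold, at 0.80 and 0.62, and Lef1 passed it with the LTbR agonist (0.59) but not with both (0.47). With a pseudocount of 50 CPM neither gene passed the fold in either treatment. Lef1 with the LTbR agonist also fell short when cells with markers of B, macrophage or neutrophil cells were left out. Only 249 of the 899 Ly49 T cells met the CD8 gate, and the rest had no Cd8 UMI or also held a Cd4 UMI.

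**Figure D3:**
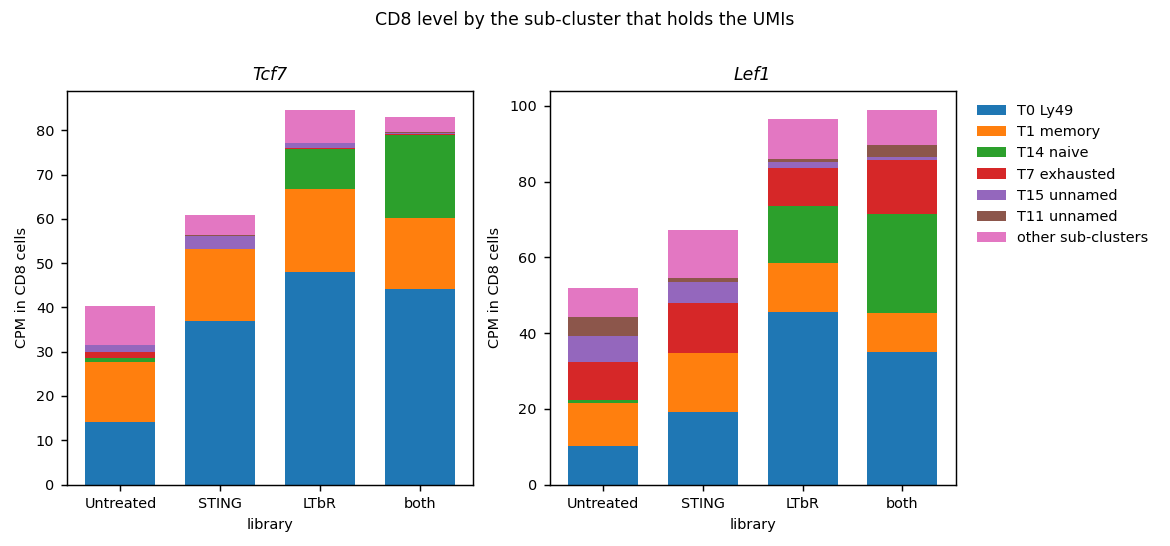
Contribution of each sub-cluster to the Tcf7 and Lef1 level (CPM, stacked bars from 0) of CD8 cells in the 4 libraries. The part from Ly49 cells is 14 CPM of Tcf7 untreated and 48.0 CPM with the LTbR agonist, and naive-like cells add 18.8 CPM with both agonists.

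In CD4 cells none of 8 genes passed the fold with the STING agonist (6.39% of all genes did), 1 of 8 with the LTbR agonist (5.44% of all genes), and none of 8 with both (11.5% of all genes). The 1 was Tcf7, which was lower with the LTbR agonist, at -0.73 [-1.09, -0.37], the opposite direction to CD8 cells. With both agonists Tcf7 was 0.61 above the LTbR agonist alone. The sub-cluster led by Nebl, Tmem176b and Ccr6 made up 24.1% of CD4 cells with the LTbR agonist and 10.3% untreated. Its Tcf7 level was 442 CPM [317, 600] untreated, 328 [265, 402] with the STING agonist, 114 [82.5, 155] with the LTbR agonist and 389 [287, 516] with both. In the sub-cluster led by Ramp3, S1pr1 and Il6ra the level was 397 to 526 CPM in the 4 libraries, and it made up 28.0% of CD4 cells untreated and 19.9% with the LTbR agonist. These cells contributed 108 of the 237 CPM untreated and 55.3 of the 139 CPM with the LTbR agonist. With an equal makeup of sub-clusters in each library the Tcf7 ratio in CD4 cells was -0.51, and with classes set by a gate on marker UMIs alone it was -0.48, both short of the fold. Naive-like cells were 3, 1, 6 and 34 of the CD4 cells. Without the low-ribosomal cells Tcf7 in CD4 cells was -0.86, and Bcl2 (0.60, LTbR agonist) and Zeb2 (0.65, both) passed the fold, beside 4.44% and 7.67% of all genes.

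In regulatory T cells 1 of 5 genes passed the fold with the STING agonist (10.7% of all genes), 1 of 7 with the LTbR agonist (6.85% of all genes) and 2 of 6 with both (12.7% of all genes). Bach2 was lower with the STING agonist, at -1.07 [-1.99, -0.17], on 39.6 CPM in 102 cells. Its ratio was -0.67, on fewer than 50 UMIs, without the low-ribosomal cells, -0.37 with cells under 5% ribosomal protein UMIs left out, and -0.43 with classes set by the marker gate, the last 2 short of the fold. Zeb2 was lower with the LTbR agonist, at -0.94 [-1.52, -0.35], and with both, at -1.24 [-1.93, -0.55]. Bcl2 was higher with both, at 0.97 [0.16, 1.77], and 1.57 above the STING agonist alone. Zeb2 itself was 1.37 higher on the log2 scale in low-ribosomal regulatory T cells, and without those cells its ratio with the LTbR agonist was -0.58 and no longer passed the fold, nor did it with classes set by the marker gate (-0.25). Without them Zeb2 with both agonists was -0.90, on fewer than 50 UMIs in either library, and with cells under 5% left out -0.47. Without cells under 3%, Bcl2 was 1.33 with both and 0.87 with the LTbR agonist, and Satb1 was 0.78 with both and 0.79 with the STING agonist, all past the fold. The shares of all genes past the fold were then 9.75% (STING agonist), 5.61% (LTbR agonist) and 5.0% (both). The Bcl2 values are low and rest on few UMIs, and the mean of single-cell CPM gave 0.08 in place of 0.97. The ratio was 0.55 and short of the fold when cells with markers of B, macrophage or neutrophil cells were left out, and 0.58, also short, with a pseudocount of 50 CPM.

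In NK cells no gene passed the fold with the STING agonist (0 of 8, against 5.11% of all genes) or with the LTbR agonist (0 of 9, against 2.17%), and 3 of 8 did with both agonists (10.5% of all genes). These were Bach2 at -0.80 [-1.0, -0.61], Satb1 at -0.64 [-0.82, -0.46] and Bcl2 at -0.63 [-0.75, -0.51], all lower. The low-ribosomal cells, in which these genes were high, made up 37.1% of untreated NK cells and 11.3% with both agonists. Without them, Bach2 stood at -0.08, Satb1 at -0.11 and Bcl2 at 0.15, and none of the 10 genes passed the fold with both agonists, beside 1.75% of all genes. Tcf7 in NK cells was lower with both agonists than with the STING agonist alone, at -0.73. Without the low-ribosomal cells Eomes passed the fold with the STING agonist, at -0.70, beside 4.99% of all genes.

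**Figure D4:**
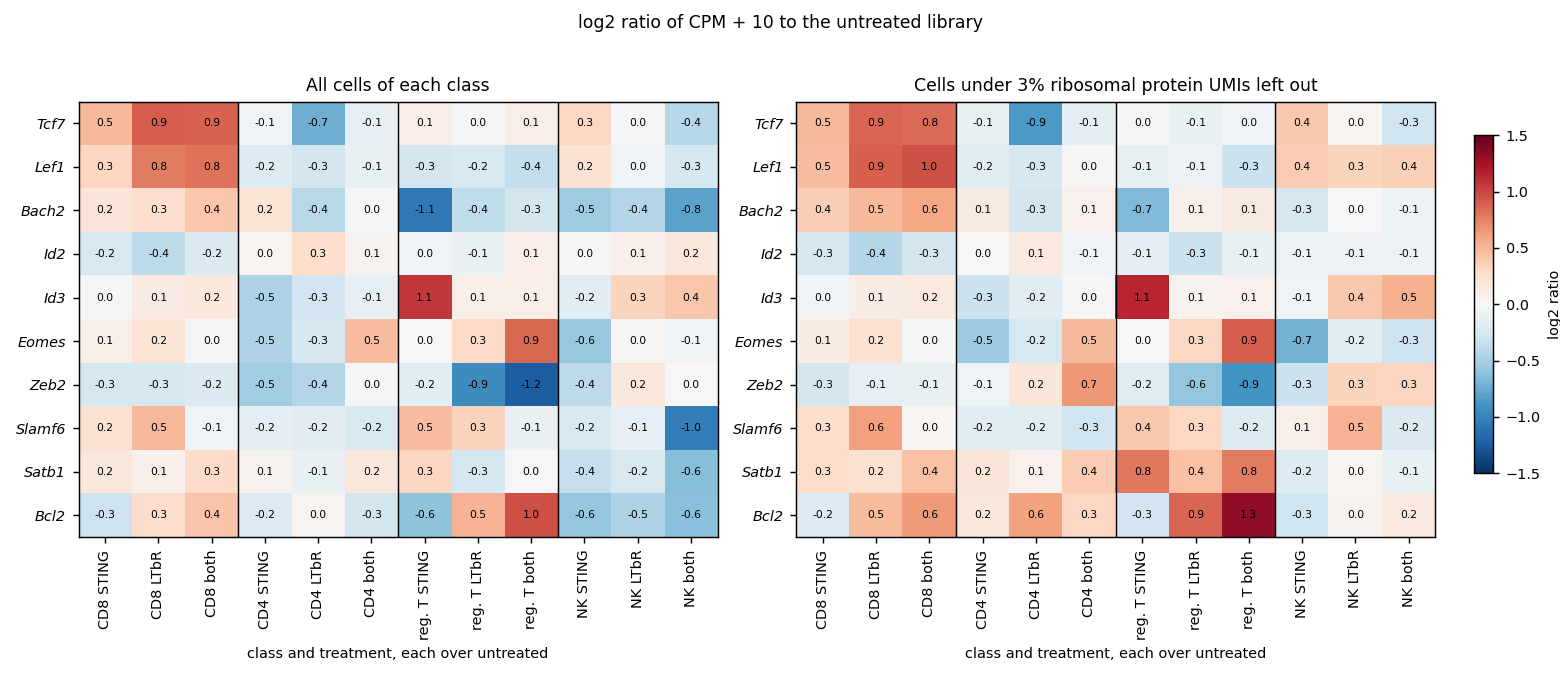
Log2 ratio of CPM + 10 to the untreated library for each gene (down) in each class and treatment (across), by colour and number, with all cells (left) and without cells under 3% ribosomal protein UMIs (right). Tcf7 and Lef1 in CD8 cells stay red in both panels, and Bach2, Satb1 and Bcl2 in NK cells with both agonists are blue on the left and near 0 on the right.

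How the other 9 genes went with Tcf7 was read from single cells thinned to 1000 UMIs, the 4 libraries together. Of the CD8 cells, 223 held a Tcf7 UMI and 3025 did not. Lef1 was 372 CPM in the first and 80.7 in the second, a log2 ratio of 2.08 [1.60, 2.54], and Slamf6 was 94.2 against 19.8 CPM (1.80). Bach2 (1.48), Satb1 (1.33) and Bcl2 (0.70) were also higher in cells with a Tcf7 UMI. In single libraries the Lef1 ratio was 1.13, 1.82, 2.93 and 1.85, from untreated to both agonists. Id2 went the other way, at 202 against 876 CPM (-2.06 [-2.55, -1.61]), and so did Zeb2, at 49.3 against 250 CPM (-2.13). Eomes was alike in both, at 40.4 and 41.0 CPM, with a ratio of -0.02 [-1.05, 0.97]. Id3, on 6 UMIs in each, was 26.9 against 1.98 CPM (1.62 [0.47, 2.68]). The ratios of cells with to cells without a Tcf7 UMI, here and below, include the low-ribosomal cells and are not given without them. Among CD8 cells, the log2 difference of the low-ribosomal to the other cells was 2.09 for Zeb2, 1.86 for Bach2 and 1.81 for Satb1. It was -2.16 for Id2 and -0.63 for Tcf7.

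Of the 12 memory-associated genes with 50 UMIs or more in the same thinned CD8 cells, 8 had an interval above 0 and 0 below, against 6.01% and 7.75% of all genes, with S1pr1 at 2.54 and Ccr7 and Klf2 at 1.96 each. Of 17 effector- or exhaustion-associated genes, 0 had an interval above 0 and 13 below, with Havcr2 at -4.56, Lag3 at -3.89, Prf1 at -3.58, Gzmb at -3.44 and Pdcd1 at -2.25. In CD4 cells (202 with and 937 without a Tcf7 UMI) the same direction held for Id2 (-1.71), Zeb2 (-1.32) and Slamf6 (1.08), while Lef1 was 0.53 [-0.05, 1.10]. With naive-like cells left out, Lef1 in CD4 cells was 0.12 and in CD8 cells 2.10. Cells without a UMI after thinning can still hold Tcf7 RNA, and cells of a library are not replicates of it.

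**Figure D5:**
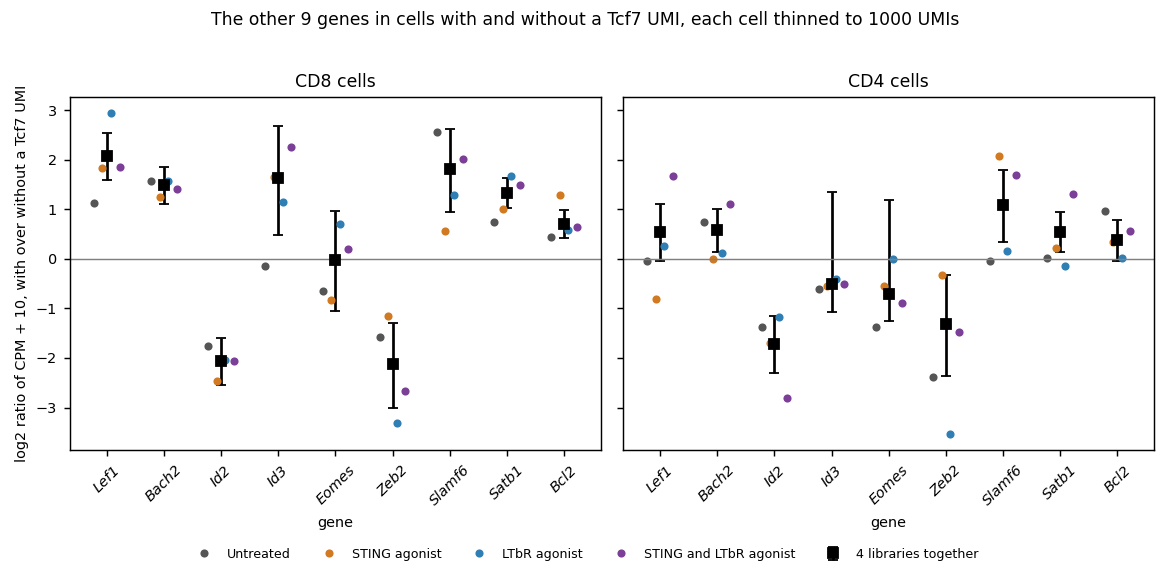
Log2 ratio of the level of the other 9 genes in cells with a Tcf7 UMI over cells without, after thinning to 1000 UMIs, in CD8 and CD4 cells: squares with bars show the 4 libraries together with intervals from exact Poisson bounds, and small points each library. In CD8 cells Lef1, Bach2, Slamf6 and Satb1 lie above 0 and Id2 and Zeb2 below.

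The partner lists give the setting of the treatment ratios. In CD8 cells with both agonists, 4 of 15 measured memory-associated genes were past the fold upward and 1 downward, with a median of 0.41, and 0 of 18 effector- or exhaustion-associated genes were past it upward and 3 downward, with a median of -0.42. Of all genes, 0.457% were past it upward and 0.96% downward. Ccr7, which guides cells into lymph nodes, was among the highest (1.25), and the lowest were Xcl1 (-1.27), a chemokine for dendritic cells, and Tox (-1.0), a factor of exhausted cells. With the LTbR agonist alone 4 of 15 memory-associated genes were past the fold upward and 0 downward, and of the other list 1 of 18 upward and 6 downward (0.809% and 1.11% of all genes). With the STING agonist alone the counts were 4 of 14 and 0, and 0 of 18 and 1 (0.688% and 0.803% of all genes). In CD4 cells with both agonists 0 of 12 memory-associated genes were past the fold upward and 2 downward (4.6% and 6.87% of all genes), and in NK cells 0 of 13 and 4 (1.2% and 9.3% of all genes). In CD4 cells the ratios reached from Gzmb (-1.15) and Entpd1 (-1.10) to Tox2 (0.53) and Nr4a3 (0.72), and in regulatory T cells from Entpd1 (-0.62) and Lag3 (-0.58) to Il7r (0.84) and Klf2 (1.08). In NK cells they reached from Tox (-1.27) and Foxp1 (-0.84) to Klf2 (0.53) and Klrg1 (0.70). These counts and ratios of partner genes include the low-ribosomal cells and were not computed without them. Without those cells, 0.98% of all genes in NK cells were past the fold upward and 0.767% downward with both agonists. The part of the low-ribosomal cells in the partner ratios was therefore not tested. The summed level of dissociation and heat shock genes was highest in the STING library in every class, at 2222 CPM in CD8 cells against 1310 to 1550 CPM in the other 3, and its part in the results was not tested. The summed levels of genes of other cells were 10.8 to 33.9 CPM for 5 B cell genes, 32.3 to 48.8 CPM for 6 macrophage genes and 0 to 33.2 CPM for 4 neutrophil genes in CD8 cells. The 9 NK markers, a list that holds Gzma and Xcl1, which CD8 cells also express, summed to 829, 747, 614 and 586 CPM in CD8 cells from untreated to both agonists, and their part in the results was not tested. The B cell genes reached 126 to 210 CPM in regulatory T cells and 61.2 to 118 CPM in NK cells, with the highest value of each with both agonists, and their part in the results was not tested.

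Over the 16 sums of 4 classes and 4 libraries, the genes whose levels were most like a member's among 5019 compared were Mfsd6 (Pearson r of 0.94), Arid5a (0.93) and Hs3st3b1 (0.92) for Tcf7, Emb, Acvr2a and Bzw2 for Lef1, and Epb41 (0.98), Pik3r5 and Gm2682 for Bach2. They were Hsd17b10 (0.91), Ddt and Ybx3 for Id2, Il31ra, Camk1d and Sirt7 for Id3, and Ugcg (0.98), Spry2 and Klri2 for Eomes. For Zeb2 they were Gpd2, Pik3cd and Sema4c, for Slamf6 Cplane1, Ext1 and Mapkapk3, for Satb1 Cnnm2, Ripor2 and Cobll1, and for Bcl2 Evl (0.97), Pde3b and Rpl38. Among the 10 genes themselves, Bach2 went with Bcl2 (0.92) and Tcf7 (0.90), Tcf7 with Lef1 (0.90), and Id2 ran against Satb1 (-0.78) as Eomes did against Slamf6 (-0.78). The sums of a class come from few clusters of cells and those of a library share its depth, so that these are descriptions of 16 dependent points. The sums include the low-ribosomal cells, and the correlations were not computed without them.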

How the data were processed

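The authors deposited UMI counts for 4 libraries of sorted CD45+ cells, made with 10x 5′ chemistry and, per the labels, Cell Ranger 7.1.0 on mm10. Whether introns or strand were counted, or reads equalised between libraries, is not given in the sources used here. Cells with 300 to 5000 genes and at most 6% mitochondrial UMIs were kept, after the filters of the study's methods, and Scrublet scores served as a check for doublets. Total counts per library were 32529174 to 60770280. Cells were clustered with scanpy 1.11.5 (2000 variable genes, 30 components, Leiden, without antigen receptor segments and without the 10 genes). Regulatory T cells were a sub-cluster named by markers. CD8 cells were other T-like cells with a Cd8a or Cd8b1 and no Cd4 UMI, and CD4 cells had a Cd4 and no Cd8 UMI. Counts were summed per class and library and given as CPM with exact Poisson intervals (scipy 1.17.1), and the interval of a ratio joins opposite bounds and is wider than 95%. Sub-clusters led by genes of another class were left out. No test was run, since each group is 1 library.

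The 10 genes, the marker lists and the partner lists were chosen with earlier results of these data known. The text names all 10, for each the 3 genes with the highest correlation, and in each class the extreme partner genes under both agonists with at least 50 UMIs, as examples. Alternatives covered pseudocounts, clustering, gates, makeup and doubtful cells. Those on ribosomal protein UMIs, gamma-delta receptors, Cd3 in NK cells and sub-clusters of another class were added after seeing the data. A self-test on simulated counts was passed before use. A partner gene that the rule would name is not reported here.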

Additional observations from a re-analysis of the deposited data

Results flagged for a closer look

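Tcf7 with the LTbR agonist moved in opposite directions in CD8 and CD4 cells, with log2 ratios to untreated of 0.91 and -0.73, a difference of 1.65. The difference was not tested, since each side is 1 library. Neither ratio passed the fold with an equal makeup of sub-clusters in each library. The CD8 ratio also fell short with a pseudocount of 50 CPM. The CD4 ratio also fell short with the marker gate and by the mean of single-cell CPM.

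Bcl2 with both agonists moved in opposite directions in regulatory T and NK cells, at 0.97 and -0.63, a difference of 1.60 that was not tested. Without the cells low in ribosomal protein UMIs the NK ratio was 0.15 and the regulatory T ratio 1.33, so that both then lay above 0.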

How the results depend on the processing

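No paired analysis was possible because each group is 1 library, and for the same reason no library could be left out. Depth limits Id3 in every class, Eomes in CD4 cells and Slamf6 in NK cells. It also limits Tcf7, Eomes, Slamf6 and Bcl2 in regulatory T cells. No treatment can be told apart from its library. With cycling cells, high Scrublet scores or cells over 3% mitochondrial UMIs left out, all 120 ratios of the 10 genes stayed within their own counting interval, although some crossed the fold. Ratios left that interval most often where cells under 5% ribosomal protein UMIs were left out (34 of 120), weighted over sub-clusters (32) and where cells under 3% were left out (27). At each of the ribosomal cut-offs, 1 more ratio left it by changing direction. This was Bcl2 in NK cells with both agonists, which turned to 0.19 at 5% and 0.15 at 3%.

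The number of genes past the fold changed as follows, where it moved by over 1.5 times. With the marker gate it was 1 for CD8 and CD4 cells with the STING agonist and 0 for CD4 and regulatory T cells with the LTbR agonist and for NK cells with both. With a pseudocount of 50 CPM it was 0 for CD8 cells with the LTbR agonist and with both, and 1 for regulatory T cells with both. With 1 CPM it was 2 for regulatory T cells with the LTbR agonist and for NK cells with the STING agonist. Weighted over sub-clusters it was 0 for CD8 cells with the LTbR agonist or both, 2 for CD4 cells with the STING agonist, 0 for CD4 cells with the LTbR agonist and 0 for NK cells with both. Without cells holding markers of another class it was 1 for CD8 and 2 for regulatory T cells, both with the LTbR agonist. Without naive-like cells it was 1 for CD8 and 2 for CD4 cells with both agonists. By the mean of single cells it was 0 for CD4 and 2 for regulatory T cells with the LTbR agonist, 1 for regulatory T cells with both, and 1 for NK cells with either agonist alone. At no more than 3% mitochondrial UMIs it was 1 for CD4 and 3 for NK cells with the STING agonist. It was 0 for NK cells with both at clustering resolution 2. Without cells under 3% ribosomal protein UMIs it was 2 for CD4 cells with the LTbR agonist, 1 with both, 1 for NK cells with the STING agonist and 0 with both, and at 3 in place of 2 for CD8 cells with the LTbR agonist and with both it moved by less. At 5% the counts for CD4 and NK cells were again 2, 1, 1 and 0, with 4 for CD8 cells with both and 2 for regulatory T cells with the LTbR agonist. With sub-clusters of another class kept it was 1 and 2 for CD4 cells with the STING and the LTbR agonist and 0 for NK cells with both. Without gamma-delta receptor UMIs it was 1 for CD4 cells with the STING agonist and 1 for NK cells with the LTbR agonist, and without Cd3 in NK cells it was 1 with the STING agonist and 1 with both. The causes of these changes were not tested.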

Other observations

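Several of the 10 genes were also measured outside T and NK cells. Bach2, which B cells use before they become plasma cells, was 519 to 1122 CPM in B or plasma cells over the 4 libraries, where Satb1 was 322 to 668 CPM and Slamf6 67.2 to 113 CPM. Zeb2, a factor of myeloid identity, was 863 to 936 CPM in macrophage- or monocyte-like cells and 540 to 806 CPM in neutrophil-like cells, above the value of every T and NK class. Id3 was 29.0 to 35.8 CPM in macrophage- or monocyte-like cells, while its value for a whole T or NK class was at most 14 CPM. Tcf7 was 1.59 to 2.54 CPM in macrophage- or monocyte-like cells.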
